A study of Danio rerio with 12 samples.

Results

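The genes described here are those of glycolysis, the pyruvate dehydrogenase complex and the tricarboxylic acid (TCA) cycle, with their closest transporters and regulators. They were chosen by gene symbol from the annotation of the Affymetrix Zebrafish array, and 1 probe set, the one with the highest mean over all arrays, was taken for each gene. This gave 69 genes of the 8793 on the array that have a probe set with a single symbol. Of the 69, 54 were bright enough to be tested and 15 were not.

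The tissue came from wild-type AB zebrafish embryos grown at 23 °C to the stage of 12 somites. Pieces of paraxial mesoderm, from which the somites form, were dissected by hand at 6 positions along the axis, and RNA of each piece was amplified and hybridized to an array. Position 6 is the last formed somites. Positions 5, 4 and 3 are the anterior, center and posterior presomitic mesoderm, position 2 is the flank of the tailbud and position 1 its center. Each position has 2 arrays, 12 in all, which are labelled as biological replicates. At position 2 one array is the left flank and the other the right. The sources used here do not give the number of embryos per piece, and a piece can hold neighbouring tissue.

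Glycolysis splits glucose into pyruvate in the cytosol and yields ATP without oxygen. Pyruvate is then either reduced to lactate by lactate dehydrogenase or taken into the mitochondrion, where the pyruvate dehydrogenase complex turns it into acetyl-CoA and the TCA cycle oxidizes it. In chick and mouse embryos, transcripts of several glycolytic enzymes and glycolytic activity itself are known to be higher in the tailbud than in the older presomitic mesoderm and the somites. The arrays allow the same axis to be read in zebrafish, at the level of transcripts only. For dim genes, and for those too dim to test, a missing call does not show a flat course.

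The values are MAS5 signals, a linear brightness per probe set. The mean of each array, trimmed by 2% at each end, was 150, while the array medians ran from 27.3 to 68.4. Tests were made on log2 of the signal plus 12.2, which understates the changes of dim genes. A gene was called where limma's p, adjusted by Benjamini-Hochberg over all 10851 tested probe sets, was below 0.05. The trend is the fitted log2 change from position 1 to position 6 along a straight line through the 6 positions, and is positive where the signal is higher toward the somites. Signals of different probe sets are not comparable as levels, so the tests compare each gene only with itself. The sums over marker lists given below are led by their brightest probe sets. Brightest refers to the signal of a probe set, not to the amount of transcript.

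The positions were set beside marker genes. These lists were chosen with earlier results of these data known, so they are not an independent check of the positions. The summed signal of 9 tailbud progenitor genes was 1902.2 and 3107 at position 6, against 19053.9 and 22386.2 at position 1, and 8 of 9 tested genes fell along the trend. The sum of 21 somite and muscle genes was 10749.3 and 12338.8 at position 6, against 843.5 and 2783.3 at position 1, and 10 of 16 tested rose. The pieces also differed in other tissues. The sum of 22 epidermal genes was between 1228.7 and 3452.1 at the 2 end positions and between 4309 and 11854 at positions 2 to 5, with no gene of the list at 0. The sum of 14 genes of blood, endothelium and intermediate mesoderm was 374.2 and 416.9 at position 1 and 2214.2 and 2483 at position 6. It reached 7316.7 on an array of position 4. Along the trend 6 of 11 tested genes of that list rose and none fell. The 2 arrays of position 1 lay apart in other tissues. Their sums of 11 notochord genes were 828.1 on the first and 3455.8 on the second. For 16 neural genes they were 679.8 and 3723.2. The part of these tissues in the metabolic genes' values was not tested. Fits with the epidermal list as a covariate are given below for some genes.

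**Figure D1:**
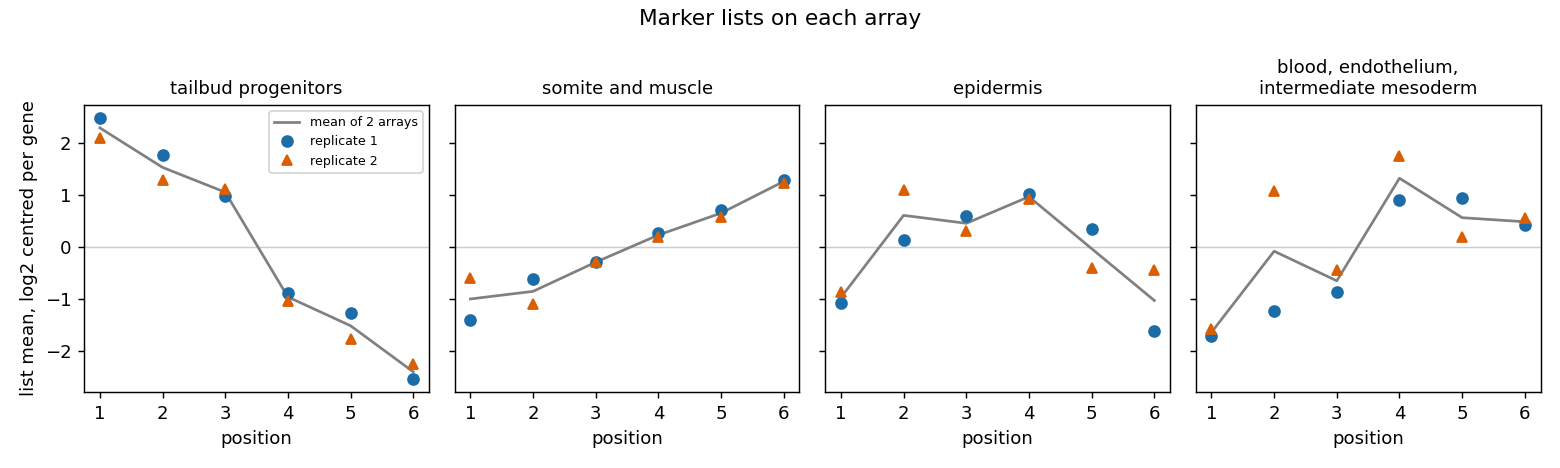
Mean of the tested genes of 4 marker lists (y axis, log2 of signal plus offset, centred on each gene's own mean) at positions 1 to 6 (x axis), 1 point per array and a line through the position means. Progenitor genes are highest at position 1 and somite and muscle genes at position 6, epidermal genes are low at both ends, and the 2 arrays of position 2 stand apart for the list of blood, endothelium and intermediate mesoderm.

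Of the 54 tested genes, 5 were called for the trend, which does not require a straight course. Those that rose toward the somites were hk1, ldhba and suclg1. They are 5.56% of the 54, beside 7.10% of all tested probe sets. The genes that fell were mdh1aa and me3, which is 3.70%, beside 6.12%. In both directions together, 9.26% of the genes were called, against 13.2% of the array, so calls were not more frequent among these genes than in the background. At an unadjusted p below 0.05, 10 genes passed, 18.5% beside 25.5%. In pieces of tissue, fewer cells of a type and less RNA per cell cannot be told apart.

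Between the ends of the axis, position 6 against position 1, hk1 was called higher, 1 of 54 genes, beside 5.41% of the array. Called lower were mdh1aa and me3, 3.70% beside 4.56%. Together these 3 genes are 5.56%, beside 9.97% of the array. At an unadjusted p below 0.05 there were 11 genes, 20.4%, beside 21.0%. Both arrays of position 6 lay above both of position 1 for 13 genes, 24.1% beside 22.3% of all tested probe sets. They lay below for 16 genes, 29.6% beside 33.5%. A moderated F test, which asks whether the 6 position means differ in any way, called cs, gpia, hk1, ldhba and mdh1aa, 9.26% of the genes against 11.2% of the array.

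The median trend of the 54 genes was -0.03, and that of all tested probe sets -0.13. The sign of the trend was positive for 27 of the 54. These figures depend on the scaling between arrays: when the arrays were centred on their medians, the median trend was 0.33 for the genes and 0.24 for all probe sets, and 38 of 54 were positive. The share of higher calls among all trend calls on the array was 53.7%, and 80.1% with that centring. The spread between replicate arrays, a median residual SD of 0.45 on the log2 scale, was close to the 0.47 of all tested probe sets. At position 2 this spread includes any difference between the left and the right flank. The correlation between the 2 arrays was lowest there, 0.83 for all tested probe sets and 0.86 for the genes.

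**Figure D2:**
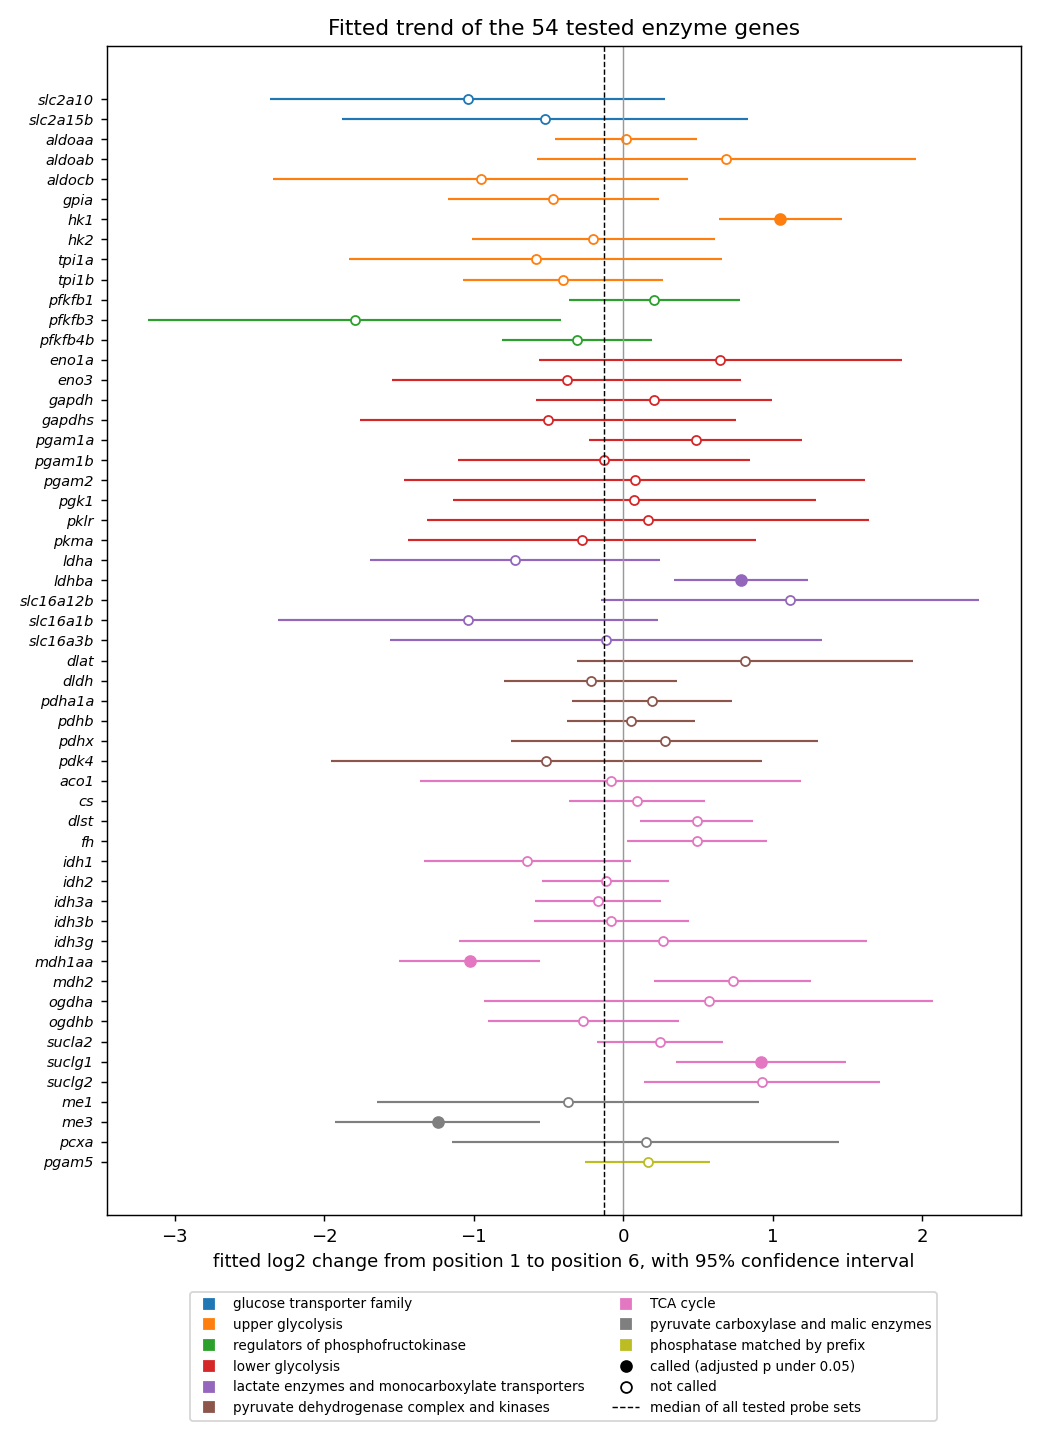
Fitted log2 change from position 1 to position 6 (x axis) of the 54 tested genes (y axis), grouped by role, with 95% confidence intervals, called genes as filled points, and the median of all tested probe sets as a dashed line. The filled points are hk1, ldhba, suclg1, mdh1aa and me3, and for 10 of the 54 genes the interval excludes 0 before adjustment.

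**Figure D3:**
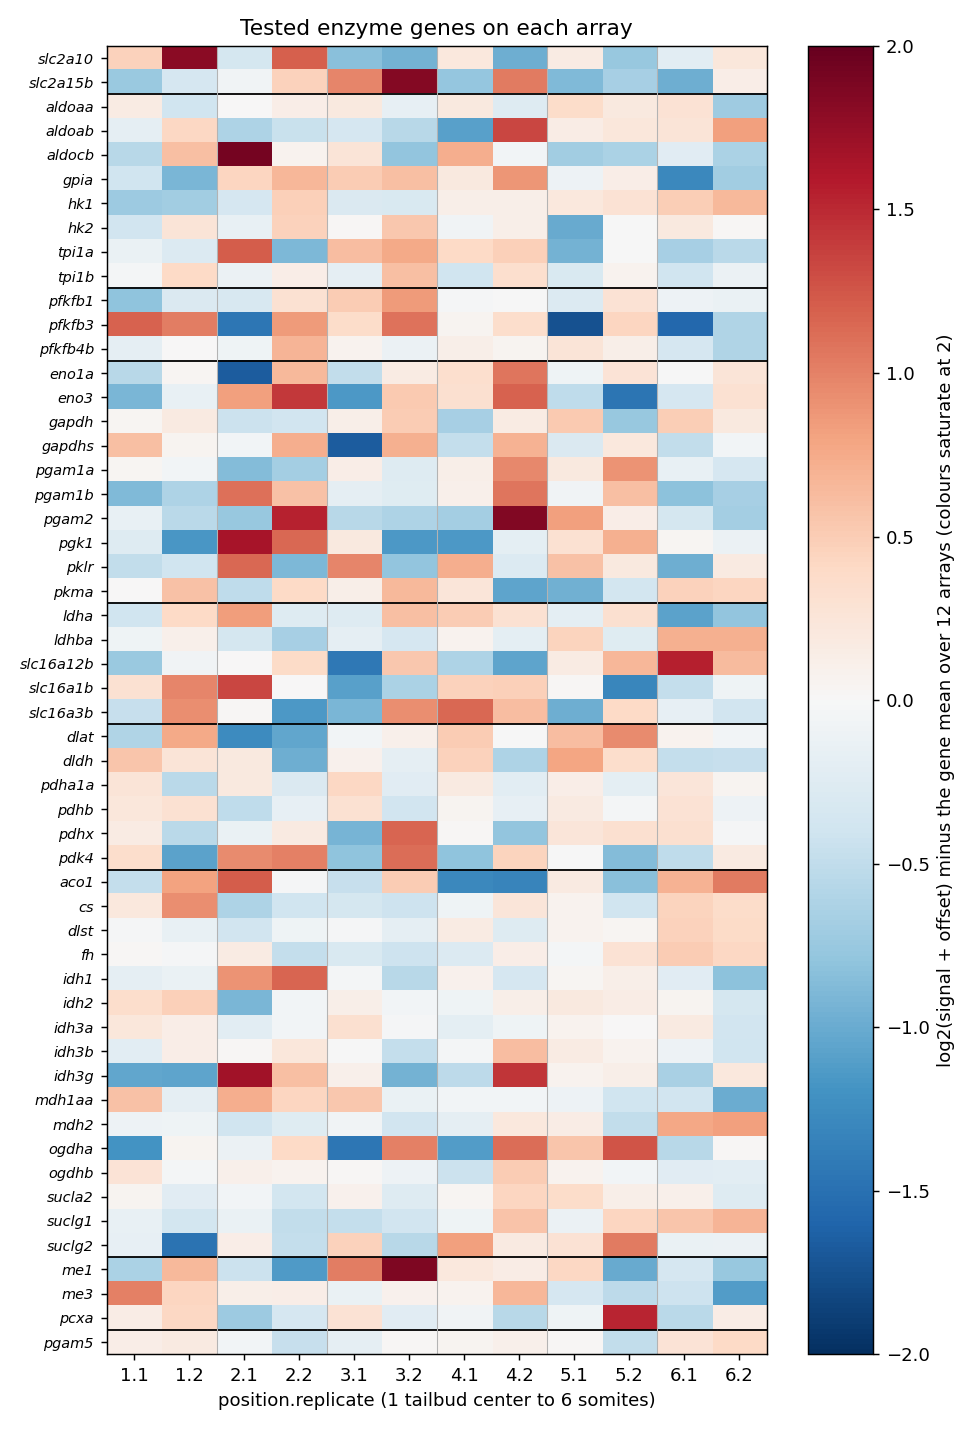
Log2 signal of the 54 tested genes (down the page, grouped by role) on the 12 arrays, positions 1 to 6 from left to right, with each gene centred on its own mean and colours that saturate at 2 log2 units. Black lines part the role groups; hk1 is above its mean and me3 and mdh1aa are below theirs at position 6.

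Glucose enters cells through transporters of the SLC2A family. The symbols matched here were slc2a10, slc2a11b, slc2a11l and slc2a15b, relatives of the main glucose carriers, and none of them was called. Of the 4, 2 were tested. The brightest was slc2a10, whose signal was between 21.5 and 33.7 on the arrays of position 6, against 41.7 and 125 at position 1, with a trend of -1.04 ± 0.63 (SE, adjusted p = 0.329). The 2 ends did not overlap for slc2a10, but the error of the trend was wide.

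Upper glycolysis turns glucose into triose phosphates, and 1 of its 8 tested genes, hk1, rose along the trend, while none fell by limma, also at an unadjusted p below 0.05. The gene hk1 encodes hexokinase 1, which phosphorylates glucose and so commits it to the cell. Its signal was 449.1 and 456.7 at position 1, 589.9 and 1040.5 at position 2, 610.2 and 599.5 at position 3, 812.2 and 815 at position 4, 863.2 and 916.6 at position 5 and 1056.8 and 1179.6 at position 6. Both arrays of position 1 were the lowest and both of position 6 the highest, and 1 array of position 2 stood above those of positions 3 to 5.

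The trend of hk1 was 1.05 ± 0.20 (SE, adjusted p = 0.000945). Position 6 was 2.43-fold above position 1, with means of 1118 and 453, a log2 difference of 1.28 ± 0.23 (adjusted p = 0.000965). A second probe set of hk1 gave a trend of 1.45 ± 0.32 (adjusted p = 0.00415), and its end difference was 1.40 (adjusted p = 0.0224). That probe set was not called by the F test (adjusted p = 0.0633). Its signal was also high, at 723, on the same array of position 2, where the other array had 181.8. That array is the right flank and carried 3529.7 of summed blood, endothelium and intermediate mesoderm signal, against 591.6 on the left. Its epidermal sum was also higher, 11854 against 6154.4. At position 1 the sums of the blood list were 374.2 and 416.9, with hk1 at 449.1 and 456.7. At position 6 they were 2214.2 and 2483, with hk1 at 1056.8 and 1179.6, so both were higher there. At position 4 they were 3068 and 7316.7, with hk1 at 812.2 and 815. At position 5 they were 4976.6 and 1601.5, with hk1 at 863.2 and 916.6. No fit held the blood list as a covariate, and the part of these tissues in the hk1 signal was not tested. Another probe set of the gene was too dim to test, and with all probe sets averaged the end difference of 1.01 was not called (adjusted p = 0.0719). The paralog hk2, hexokinase 2, had a trend of -0.20 ± 0.39 (adjusted p = 0.814), and its signals of 113.1 and 98.2 at position 6 lay between those of position 1, 71.1 and 118.6.

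The other gene of upper glycolysis called was gpia, by the F test. It encodes glucose-6-phosphate isomerase, which makes fructose 6-phosphate. Its signal was 86.5 and 56.9 at position 1, 162.3 and 193.7 at position 2, 173.2 and 184.4 at position 3, 136.6 and 228.4 at position 4, 109.1 and 131 at position 5 and 41.1 and 68.1 at position 6. It was low at both ends and high between them, and the arrays of positions 2 to 5 lay above all 4 arrays of the ends.

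The adjusted p of the F test for gpia was 0.0262, and its trend of -0.47 ± 0.34 was not called. The lowest array medians were also at the ends, 27.3 and 33.7 at position 6 and 36.4 on the first array of position 1. The epidermal sum was likewise low at the ends and high between them. With the mean of that list as a covariate, the F test of gpia gave an adjusted p of 0.768. That mean itself followed position, with 12 of the 19 tested genes of the list called by the F test. This fit can therefore not tell position from epidermis, for gpia or for the genes below. The call was also lost with quantile normalization (0.129) and median centring (0.378), and without either array of position 3 (0.0534 and 0.059), the second of position 4 (0.0515) or the first of position 6 (0.131). Its paralog gpib was below the filter.

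Aldolase cleaves fructose 1,6-bisphosphate, and aldoaa was the aldolase gene with the highest signal, 1837.9 to 3898.8 over the 12 arrays. It was 3668.3 and 1837.9 at position 6 and 3359.5 and 2279.6 at position 1, so the groups overlapped. Its trend was 0.02 ± 0.23, with a 95% interval from -0.45 to 0.49. The paralogs aldoab and aldocb had trends of 0.69 ± 0.61 and -0.95 ± 0.66, neither called, and aldoca was below the filter. Triose phosphate isomerase, tpi1a and tpi1b, had trends of -0.58 ± 0.60 and -0.40 ± 0.32. The genes of phosphofructokinase, the enzyme that controls the rate of glycolysis, were pfklb, pfkma and pfkpa, and all 3 were below the filter, so their course along the axis could not be read here.

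**Figure D4:**
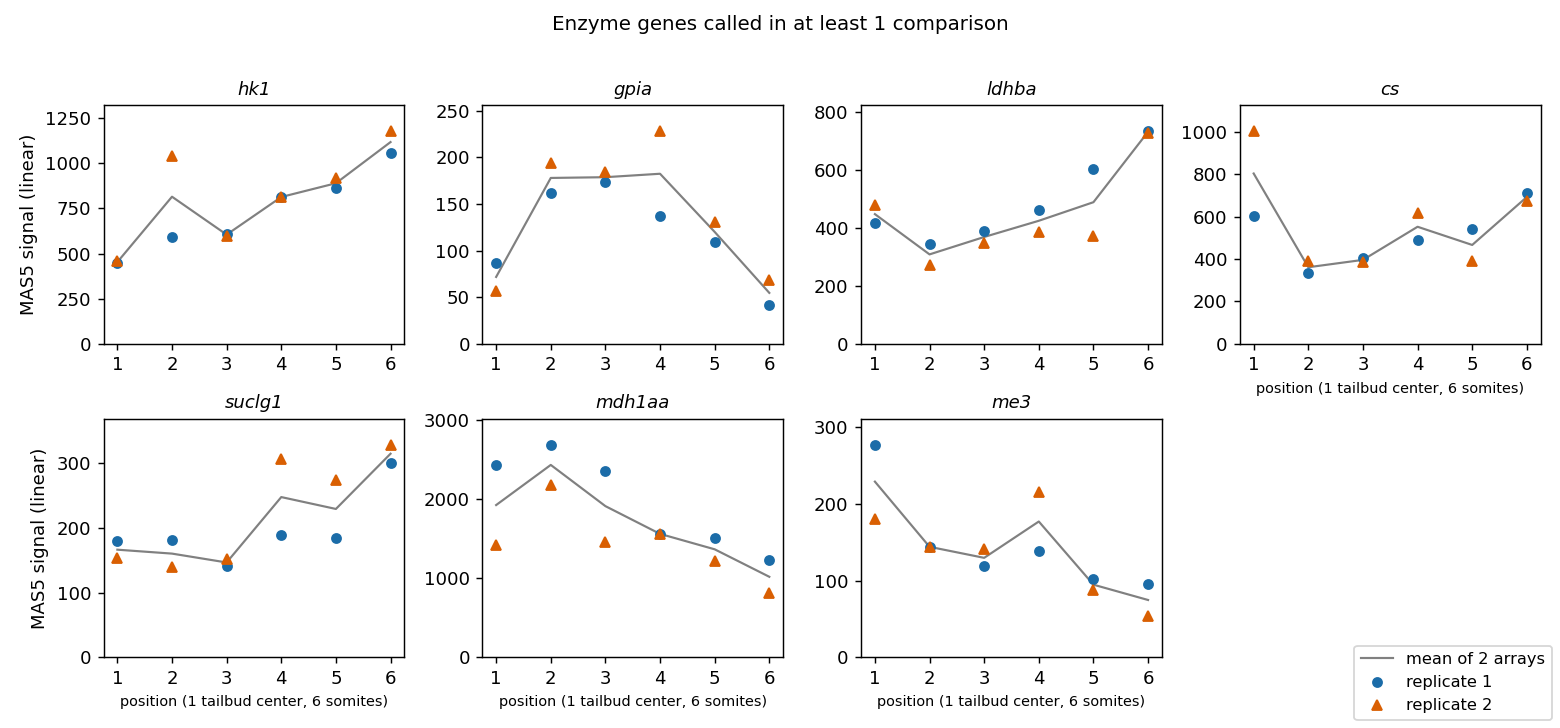
MAS5 signal (y axis, linear, from 0, a scale for each gene) at positions 1 to 6 (x axis) of the 7 genes called in at least 1 comparison, 1 point per array and a line through the position means. Signals of hk1, ldhba and suclg1 are higher at position 6 than at position 1, those of mdh1aa and me3 lower, gpia peaks between the ends and the mean of cs is lowest at positions 2 and 3.

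The enzymes made from the pfkfb genes both form and remove fructose 2,6-bisphosphate, the strongest activator of phosphofructokinase. None of the 3 tested was called in any comparison. For the trend pfkfb3 had an unadjusted p below 0.05, and pfkfb1 and pfkfb4b had one at single steps. The gene pfkfb3 had signals of 109.6 and 97.1 at position 1, 7.6 and 84.2 at position 2, 57.1 and 102.1 at position 3, 43.5 and 56.3 at position 4, 3.9 and 59.9 at position 5 and 5.9 and 23 at position 6. Both arrays of position 6 lay below both of position 1, but the 2 arrays of position 2, and those of position 5, lay far apart.

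The trend of pfkfb3 was -1.80 ± 0.66, the largest in size among the 54 genes, with a 95% interval from -3.18 to -0.41 and an adjusted p of 0.0829. The brightest of the group, pfkfb4b, had 217.6 and 181 at position 6, against 245.3 and 281.1 at position 1, and a trend of -0.31 ± 0.24. The trend of pfkfb1 was 0.21 ± 0.27, and pfkfb2a was below the filter.

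Lower glycolysis makes ATP and pyruvate from triose phosphates. None of its 10 tested genes was called by limma in any comparison. None had an unadjusted p below 0.05 for the trend or between the ends, while eno3, pgam1b and pgk1 did at single steps. The trends ran from -0.50 to 0.65 with a median of 0.08. The gene gapdh, glyceraldehyde-3-phosphate dehydrogenase, had signals of 168.2 and 135 at position 6, against 119.5 and 134.1 at position 1, and a trend of 0.21 with a 95% interval from -0.58 to 1.00. The probe set of highest mean signal was that of pgam1a, phosphoglycerate mutase, with 109.6 and 94 at position 6 and 125.9 and 117.3 at position 1, without overlap. Its trend was 0.49 ± 0.34, of the opposite sign, since positions 4 and 5 held its highest signals. The paralog pgam1b had signals of 127.6 and 86 at position 2, above all arrays of both ends, but its trend was -0.13 ± 0.47. The other tested genes, gapdhs, pgk1, pgam2, pkma, pklr, eno1a and eno3, had dim signals and wide intervals that all included 0, and eno1b was below the filter.

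Lactate dehydrogenase interconverts pyruvate and lactate. Of the 5 tested genes of lactate enzymes and monocarboxylate transporters, ldhba rose along the trend. It encodes an LDH-B subunit, the form that prevails in the heart of mammals. Its signal was 418 and 478.4 at position 1, 344.4 and 273.5 at position 2, 390.5 and 347.8 at position 3, 463.3 and 387.1 at position 4, 605 and 373.9 at position 5 and 735.7 and 730.3 at position 6. Position 6 stood above all other arrays, and the lowest signals were at position 2, so the course was not even.

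The trend of ldhba was 0.79 ± 0.21 (adjusted p = 0.0168), and its F test had an adjusted p of 0.0339. With the epidermal covariate the F test of ldhba had an adjusted p of 0.204. The trend call was lost without position 2 (0.62, adjusted p = 0.0855), without either array of position 6 (0.0607 and 0.0547) and without the first array of position 1 (0.0766) or 5 (0.0694). The F call was lost without the second array of position 2 (0.0726) or 4 (0.0507), either of position 3 (0.0611 and 0.0725) or either of position 6 (0.163 and 0.16). The subunit prevailing in mammalian muscle is encoded by ldha, which had 24.2 and 31.9 at position 6, against 45.4 and 88.3 at position 1. The position 6 signals were the lowest of all 12, yet the trend of ldha, -0.72, had a 95% interval from -1.70 to 0.25 and was not called. The difference between ldhba and ldha was not tested. The transporters slc16a12b, slc16a1b and slc16a3b had trends of 1.11 ± 0.60, -1.04 ± 0.61 and -0.12 ± 0.69, none called. The paralog ldhbb and the D-lactate dehydrogenase gene ldhd were below the filter.

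Pyruvate dehydrogenase links glycolysis to the TCA cycle, and its kinases switch it off. None of the 6 tested genes was called by limma in any comparison, and none had an unadjusted p below 0.05 for the trend. The brightest was dldh, the E3 subunit shared with other dehydrogenases, at 752.9 and 761.3 at position 6, against 1543.2 and 1263.2 at position 1. The groups did not overlap, with an unadjusted p below 0.05 that did not pass adjustment, but dldh was also low on 1 array each of positions 2 and 4, 531 and 683, and its trend was -0.22 ± 0.28. The E1 subunit pdhb had a trend of 0.05 with a 95% interval from -0.37 to 0.48, and that of pdha1a was 0.20 ± 0.26. The intervals of dlat, pdhx and pdk4 also included 0, and pdk2b was below the filter.

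The TCA cycle was the largest group, with 18 genes of which 16 were tested. Along the trend suclg1 rose and mdh1aa fell, 1 of the 16 in each direction, beside 7.10% and 6.12% of the array. After adjustment, calls were therefore not more frequent in this group than on the array. The median trend was 0.17, beside -0.13 on the array, and 5 of the 16 had a positive and 1 a negative trend with an unadjusted p below 0.05, 37.5% beside 25.5% of the array. The 5 are suclg1, suclg2, mdh2, dlst and fh, and the 1 is mdh1aa.

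Citrate synthase, cs, joins acetyl-CoA to oxaloacetate at the entry of the cycle. Its signal was 603.2 and 1004.7 at position 1, 333.4 and 389 at position 2, 406 and 385.9 at position 3, 488.9 and 615.9 at position 4, 543.8 and 389.2 at position 5 and 710.5 and 675.7 at position 6. Its mean was high at both ends and lowest at positions 2 and 3, and no array of position 2 or 3 reached those of the ends. The epidermal sum was low at both ends and higher between them.

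Position 2 had a mean of 361 for cs, against 804 at position 1, a log2 difference of -1.09 ± 0.26 (adjusted p = 0.0367). This was the only call among the 54 genes at that step, where 0.424% of the array was called lower and 1.11% higher, 1.53% in all. The call was lost without the higher array of position 1 (-0.72, adjusted p = 0.368), without either array of position 2 (adjusted p = 0.155 and 0.0614) or 3 (0.0668 and 0.0644) and without the second of position 4 (0.0535). The F test of cs had an adjusted p of 0.0273, and 0.144 with the epidermal covariate. With that covariate the difference between positions 2 and 1 was -1.40, larger in size but not called (adjusted p = 0.459). The F call of cs was lost without the second array of position 1, the first of position 2, either of position 3 or either of position 6. The isocitrate dehydrogenases were not called. The trends of idh2, idh3a and idh3b were -0.12 ± 0.20, -0.17 ± 0.20 and -0.08 ± 0.25. The intervals of idh3g, aco1, ogdha and ogdhb included 0, and ogdhl was below the filter.

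Succinyl-CoA ligase makes succinate and a nucleotide triphosphate. The alpha subunit is encoded by suclg1, with signals of 179.8 and 152.8 at position 1, 181.5 and 139 at position 2, 141.5 and 151.6 at position 3, 189.5 and 305.5 at position 4, 183.8 and 274.5 at position 5 and 300.5 and 328.3 at position 6. It was flat at positions 1 to 3 and higher at position 6 than on all arrays of those positions. The trend was 0.92 ± 0.27 (adjusted p = 0.0280). With the epidermal covariate the trend of suclg1 was 0.86 and not called (adjusted p = 0.0519). The call was lost in 7 of 25 alternatives, among them without either array of position 1 (adjusted p = 0.0541 and 0.104) or 6 (0.0803 and 0.117) and without the second of position 5 (0.0942).

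The GTP-forming beta subunit, suclg2, had a trend of 0.93 ± 0.38 (adjusted p = 0.119) and was not called. Its highest signals, 312 and 366.3, were at positions 4 and 5, and position 6 had 155.1 and 156.5. The ATP-forming beta subunit, sucla2, had a trend of 0.25 ± 0.20 and overlapping ends.

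Malate dehydrogenase exists in the cytosol and in mitochondria. The cytosolic mdh1aa had signals of 2429.4 and 1422.1 at position 1, 2688.3 and 2177.7 at position 2, 2359.5 and 1464.9 at position 3, 1561.9 and 1560.9 at position 4, 1509 and 1224.1 at position 5 and 1230.3 and 808.1 at position 6. Both arrays of position 6 were below both of position 1, but the 2 arrays of position 1 lay far apart, at 2429.4 and 1422.1.

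The trend of mdh1aa was -1.03 ± 0.23 (adjusted p = 0.00385), and position 6 was at 1019, against 1926 at position 1, a log2 difference of -0.89 ± 0.27 (adjusted p = 0.0390). A second probe set of mdh1aa had a trend of -0.97 ± 0.27 (adjusted p = 0.0190), and its end difference was not called. The trend call was lost with median centring (-0.66, adjusted p = 0.225). The end call was lost in 10 of 25 alternatives, with -0.51 (adjusted p = 0.413) without the first array of position 1 and -0.59 (0.383) without the second of position 6. It was also lost without either array of position 4 (0.0576 and 0.0575) or 5 (0.0521 and 0.0523). The F test of mdh1aa (adjusted p = 0.0335) was lost with median centring (0.595), and without the first array of position 2 (0.111), either of position 4 (0.0599 and 0.0631) or 5 (0.0505 and 0.0665), or the second of position 6 (0.18). With the epidermal covariate the F test of mdh1aa had an adjusted p of 0.0518. The paralog mdh1ab was below the filter.

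The mitochondrial mdh2 had signals of 215.3 and 218 at position 1, 172.1 and 194.3 at position 2, 219.9 and 175.7 at position 3, 203.6 and 270.5 at position 4, 257.4 and 162.1 at position 5 and 404.4 and 417.4 at position 6. The signals at position 6 were above all others. The trend of mdh2 was 0.73 ± 0.25 (adjusted p = 0.0601), not called, and the difference between the 2 genes was not tested. Chosen after their values were seen, dlst, a subunit of the 2-oxoglutarate dehydrogenase complex, had a trend of 0.49 ± 0.18 (adjusted p = 0.0825), and fh, fumarase, had 0.49 ± 0.22 (adjusted p = 0.172).

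Malic enzymes turn malate into pyruvate, and pyruvate carboxylase refills the cycle. Of the 3 tested genes, me3, the mitochondrial NADP-dependent malic enzyme, fell. Its signal was 277 and 180.9 at position 1, 143.8 and 144.3 at position 2, 118.6 and 140.8 at position 3, 138.4 and 215.6 at position 4, 101.9 and 87.6 at position 5 and 95.7 and 53.9 at position 6. Position 6 lay below position 1 without overlap, and 1 array of position 4 stood above its neighbours.

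The trend of me3 was -1.24 ± 0.33 (adjusted p = 0.0143). Position 6 was at 74.8, against 229 at position 1, a log2 difference of -1.48 ± 0.39 (adjusted p = 0.0173). Both calls were lost with quantile normalization and median centring. They were also lost without the first array of position 1 (trend -1.03, adjusted p = 0.118) and without the second of position 6 (trend -0.99, adjusted p = 0.115). The cytosolic paralog me1 had a trend of -0.37 ± 0.61, and pcxa, pyruvate carboxylase, 0.15 ± 0.62, with pcxb below the filter. The last gene, pgam5, shares its prefix with the mutases but encodes a mitochondrial phosphatase. It had signals of 600.6 and 656.9 at position 6, against 539.1 and 560.1 at position 1, and a trend of 0.17 ± 0.20.

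Between neighbouring positions few probe sets of the whole array were called. Beyond cs at the first step, limma called none of the 54 genes at the steps from position 2 to 3, 3 to 4, 4 to 5 and 5 to 6, where 0.129%, 0.221%, 0.212% and 1.21% of the array were called. At an unadjusted p below 0.05 there were 11, 7, 2, 1 and 7 genes at the 5 steps. These are 20.4%, 13.0%, 3.70%, 1.85% and 13.0% of the 54, beside 14.5%, 9.50%, 7.29%, 7.07% and 12.1% of the array.

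Pathways that connect to glycolysis and the TCA cycle were read through 7 lists with 87 genes, of which 72 were tested. Along the trend 5 rose and 8 fell, 18.1% against 13.2% of the array, where 7.10% rose and 6.12% fell. The counts of single lists are to be read against those shares. The lists were chosen with earlier results of these data known, so no excess over the array can be read from any of these counts. The lists were the pentose phosphate pathway, glycogen and gluconeogenesis, mitochondrial carriers, the glutamine and serine branches, fatty acid and acetyl-CoA enzymes, the hypoxia pathway and creatine energy transfer.

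Of the pentose phosphate pathway, 2 of 5 genes fell and none rose. The gene pgd, 6-phosphogluconate dehydrogenase, which makes NADPH, had signals of 70.3 and 57.8 at position 6, against 284.5 and 378.8 at position 1, and a trend of -2.06 ± 0.32 (adjusted p = 0.000126). Its groups were far apart, and the mean signal was lower at each position than at the one before. The trend of taldo1, transaldolase, was -0.53 ± 0.17 (adjusted p = 0.0437), a call lost in 15 of 25 alternatives. Leaving out any single array of positions 1, 2, 3, 5 or 6 lost it, with an adjusted p from 0.0526 to 0.147.

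Of the glycogen list, phkg2, a catalytic subunit of phosphorylase kinase, which activates glycogen breakdown, had signals of 8.9 and 5.3 at position 6, against 245.6 and 181 at position 1. Its trend was -4.19 (adjusted p = 2.29e-06). Signals at positions 1 to 3 were between 122.8 and 245.6, and at positions 4 to 6 at most 35. The gene gyg1a, glycogenin, the primer of glycogen synthesis, rose, with a trend of 1.81 (adjusted p = 0.0119), and 0.93 (adjusted p = 0.212) where its probe sets were averaged. The call was lost without the second array of position 1 (0.0505) or the first of position 6 (0.122).

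Of the glutamine and serine list, 1 of 9 tested genes rose and 3 fell, 11.1% and 33.3%, beside 7.10% and 6.12% of the array. The first enzyme of serine synthesis from a glycolytic intermediate, phgdh, had 797.2 and 451.9 at position 6, against 2287 and 2840.5 at position 1, and a trend of -1.78 (adjusted p = 6.35e-06). It was already called lower at position 2, where it had 1022.8 and 877.9, a log2 difference of -1.42 (adjusted p = 0.00411). The next enzyme of that branch, psat1, had a trend of -0.94 (adjusted p = 0.0244), lost in 9 of 25 alternatives, among them without the first array of position 1 (0.116) or 2 (0.062), the second of position 5 (0.0613) or either of position 6 (0.0868 and 0.0648).

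The mitochondrial serine hydroxymethyltransferase, shmt2, which turns serine into glycine, rose with a trend of 2.23 ± 0.29 (adjusted p = 1.77e-05). It had 692.3 and 1243.5 at position 6, against 188.2 and 178.1 at position 5, a log2 difference of 2.27 ± 0.34 (adjusted p = 0.00161). All arrays of positions 1 to 5 lay between 101.6 and 204.4, so the difference stood at the last step. Averaged over its probe sets, the trend of shmt2 was 1.02 (adjusted p = 0.133). A glutamine synthetase gene, glulb, fell with a trend of -0.94 (adjusted p = 0.00375), and with its probe sets averaged the trend was -0.71 and not called (adjusted p = 0.184). Its paralog glula had a trend of 1.37 ± 0.48, of the opposite sign and not called (adjusted p = 0.0696).

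Of the carriers, vdac2, a pore of the outer mitochondrial membrane, rose by 0.84 (adjusted p = 0.0040), a call lost without position 2 (0.57, adjusted p = 0.0638) and without an intensity trend in the variances (0.0618). In the same list slc25a1a, the citrate carrier, had a trend of -0.998 (adjusted p = 0.00701), lost without the second array of position 6 (0.0567). In the hypoxia list 1 of 11 tested genes was called, hif1al, for which RefSeq lists a hypoxia-inducible factor 3 alpha synonym, with a trend of -1.13 (adjusted p = 0.000162). Creatine genes ckma, muscle creatine kinase, and gatm, the first enzyme of creatine synthesis, rose, by 2.08 (adjusted p = 0.0239) and 3.79 (adjusted p = 5.57e-05). The call of ckma was lost without either array of position 1 (0.0852 and 0.0696) or 6 (0.126 and 0.107) and without the first of position 5 (0.0637). With median centring taldo1, psat1, glulb, slc25a1a and hif1al were no longer called, with trends from -0.76 to -0.16. Of the 16 tested genes of the fatty acid list none was called by limma along the trend.

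**Figure D5:**
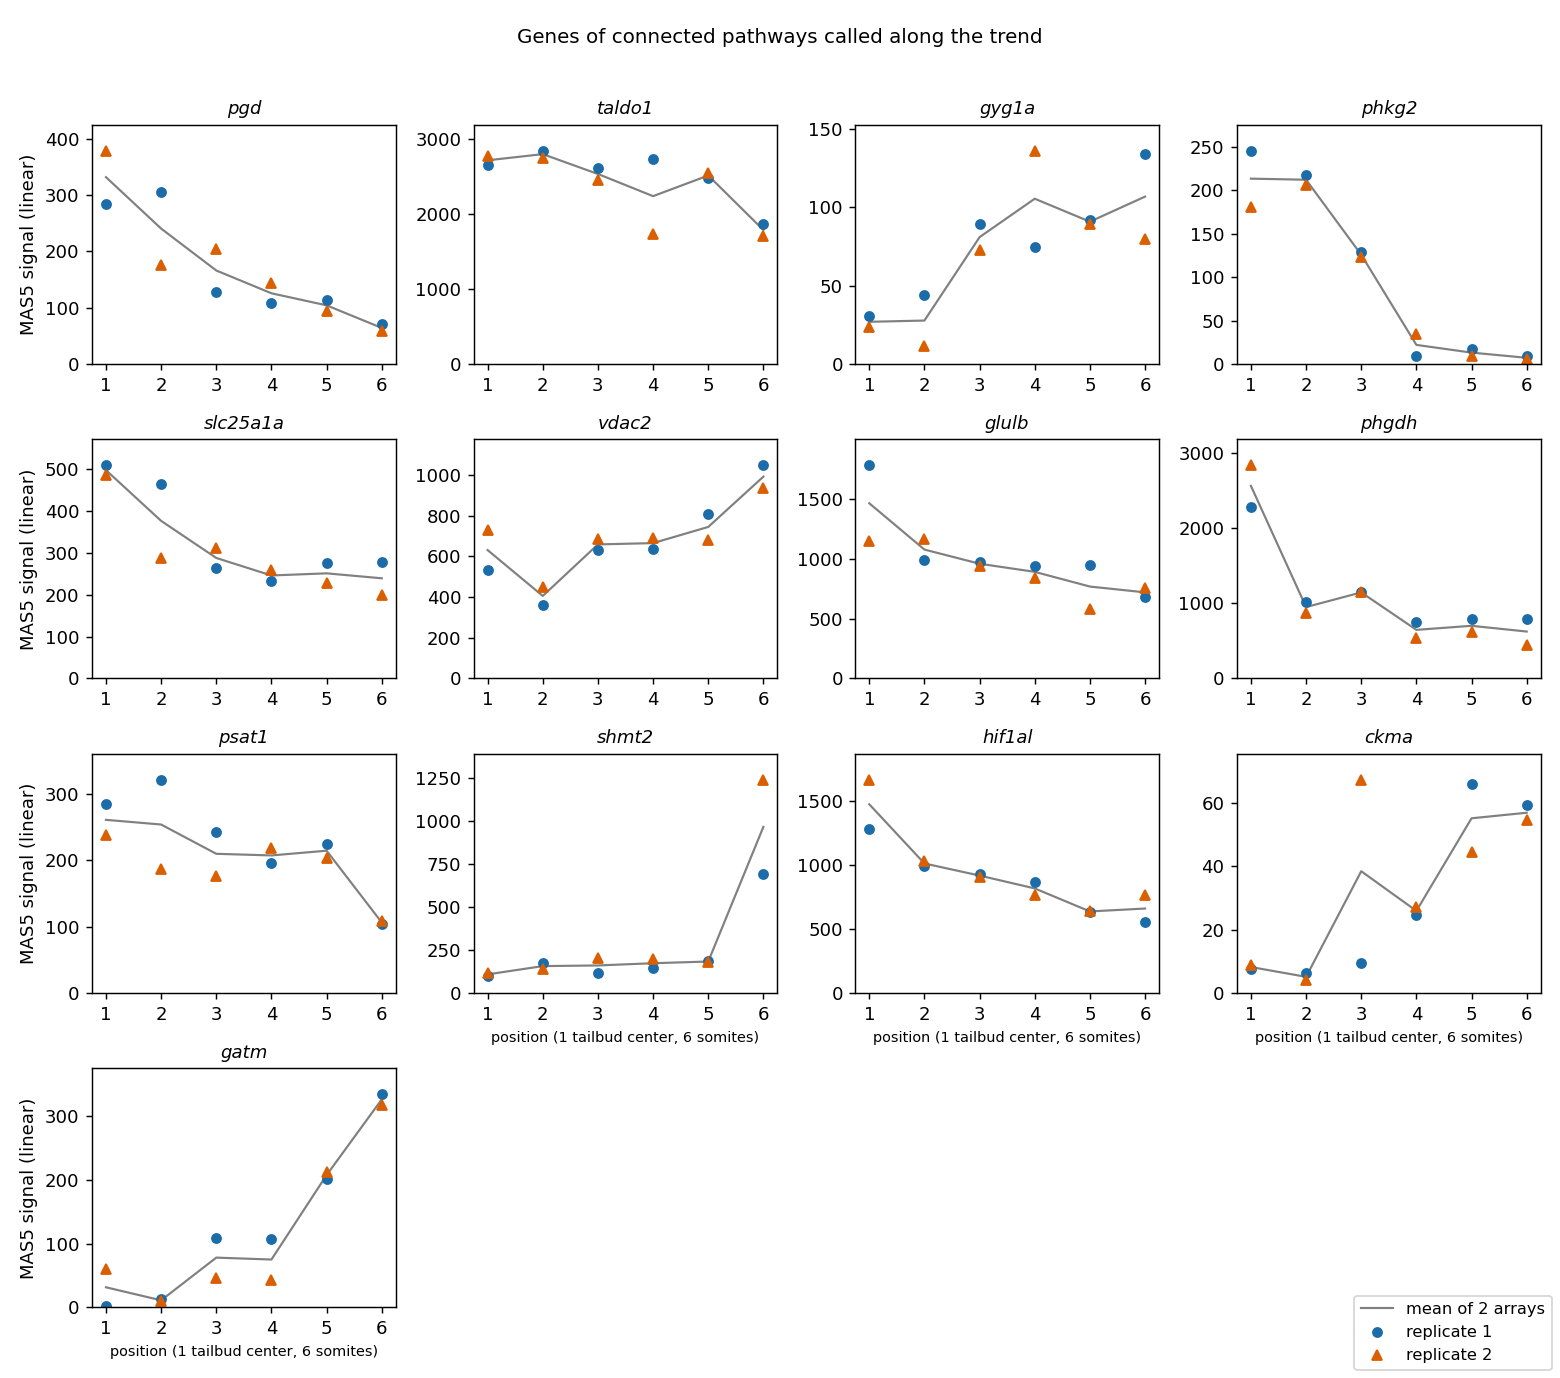
MAS5 signal (y axis, linear, from 0, a scale for each gene) at positions 1 to 6 (x axis) of the 13 genes of connected pathways called along the trend, 1 point per array, with lines through the position means. phkg2 is at most 35 at positions 4 to 6, phgdh is lower from position 2 on, and shmt2 is higher at position 6 only.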

How the data were processed

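The authors deposited a MAS5 intensity per probe set on a linear scale for 12 arrays, per the submitters' processing notes, which give no version. On the values, each array had been scaled by 1 factor. Of 15617 probe sets, 115 controls, 3 of them of gapdhs, were left out. Of the remaining 15502, 10795 carry 1 gene symbol, 135 several and 4572 none. All 69 symbols are current in RefSeq. Detection calls and genome positions were not used here, so low signals are not called absent.

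From the deposited intensity values, log2(signal + 12.2), the offset being the 25th percentile of all signals, was computed. Probe sets below the 30th percentile of mean log2 value were left out (4651 of 15502). One model with 6 position means was fitted in limma 3.58.1 (R 4.3.3) to all 10851 tested probe sets, with intensity-dependent variance moderation, 6 residual and 12.84 prior degrees of freedom, two-sided tests and Benjamini-Hochberg adjustment within each of 8 comparisons. Errors beside changes are SE. The number of arrays, 2 a position, limits the precision, and p-values measure the spread between these samples. At position 2 that spread includes any difference between the left and the right flank. The samples were not treated as paired by replicate number, and the labels do not say whether pieces of the same number share embryos. The correlation of replicate differences between positions was between -0.07 and 0.08 over 15 pairs, which cannot settle this. Genes named are all called ones, the brightest of each role group and their paralogs, and of the connected lists those called along the trend. The others given with values (gapdh, tpi1a, tpi1b, the slc16a transporters, pdhb, pdha1a, idh1, idh2, idh3a, idh3b, dlst, fh, suclg2, sucla2 and pcxa) were chosen after their values were seen. So was glula, the paralog of glulb. The members and lists were chosen with earlier results of these data known. The test was tried on simulated data, but the outcome is not given here and no result rests on it.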

Additional observations from a re-analysis of the deposited data

How the results depend on the processing

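The called results of the members were refitted under 25 alternatives, and none of them changed sign. The trend of hk1 was called in all 25, from 0.88 to 1.41 (adjusted p from 6.13e-05 to 0.0385), and its end difference in 24. The F call of hk1 held in 23, and was lost with averaged probe sets (adjusted p = 0.271) and without the intensity trend (0.174). The other trend calls held in 23 (mdh1aa), 21 (me3), 19 (ldhba) and 18 (suclg1). Along the trend, the 3 genes higher and 2 lower became 5 and 0 with median centring, and 1 and 1 where variances followed no intensity trend, and quantile normalization left 1 lower; leaving out 1 array each gave 1 to 3 in both directions. At position 6 against 1, the 1 higher and 2 lower became 2 and 0 with median centring, 4 and 4 with array weights, 1 lower with quantile normalization or without the intensity trend, 2 higher with a filter at the 60th percentile and 0 higher with averaged probe sets; leaving out 1 array gave 0 to 4 lower. The replicate block, which rests on the replicate number alone, gave 4 lower there, and 1 lower at position 6 against 5. At position 2 against 1, the 1 lower became 2 with median centring and 0 with quantile normalization, without the intensity trend, with array weights, in a fit of 4 arrays only and with the epidermal covariate; leaving out 1 array gave 0 to 1 in both directions, and leaving out the 3 arrays of highest median signal gave 1 higher. At position 6 against 5, where none was called, 1 was higher with median centring or array weights, and 1 lower with array weights or 4 arrays only. The F test called 5 genes, 8 with median centring (gpia and mdh1aa not among them), 8 with array weights, 3 with averaged probe sets, 2 with quantile normalization, without position 2 or without the 3 arrays of highest median signal, 1 with the epidermal covariate and 0 without the intensity trend; leaving out 1 array gave 2 to 5. Of the connected pathways, the 8 lower along the trend became 3 with median centring and 4 without the intensity trend, and the 5 higher became 3 with averaged probe sets; leaving out 1 array gave 3 to 9 higher and 5 to 9 lower. The causes were not tested. The epidermal covariate and the removal of the 3 arrays were chosen after seeing the data. Of the 49 genes not called along the trend, 24 changed sign in some alternative, and mdh2, pfkfb3 and suclg2 were called in 4, 5 and 2 alternatives. Signals near the offset limit what can be read of dim genes, among them the 15 below the filter.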

Other observations

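Among genes that were not called, idh1, the cytosolic isocitrate dehydrogenase, chosen after its values were seen, had signals of 226.1 and 275.2 at position 2, against 101.3 and 104.3 at position 1, and between 60.7 and 127 on all arrays of positions 3 to 6. Its paralog idh2 had 590.5 and 1078.5 at position 2, against 1436.6 and 1572.5 at position 1.

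The highest position mean of the 54 tested genes was at position 6 for 13 of them, 24.1%, beside 17.2% of all tested probe sets. It was at position 1 for 8 of them, 14.8%, beside 17.7%. At positions 2, 3, 4 and 5 the shares were 20.4%, 13.0%, 9.26% and 18.5%, beside 22.8%, 13.2%, 16.4% and 12.6%. Dim genes are counted here too, and peaks under other scalings between arrays are not given.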
